A study of Mus musculus with 3 samples.

Results

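C1q-high macrophages of the uninjured mouse heart were sequenced as single cells in 2 separate libraries, and the values below compare those libraries gene by gene. Cells were chosen by measured values: at least 500 detected genes, at most 10% of UMIs (unique molecular identifiers, the counted RNA molecules) from mitochondrial genes, at least 40 UMIs of C1qa, C1qb and C1qc together per 10000, no UMI of Xcr1, Clec9a or Cd209a, and fewer than 50 UMIs of Retnla. The rule kept 2027 cells of the 3586 barcodes in the 2 libraries and of 8283 barcodes in the series: 1466 of 1806 in the first library and 561 of 1780 in the second. The first library, called the reporter library here, held heart macrophages of C57BL/6 mice of genotype Cx3cr1CreER-YFP/+:R26Td/+, in which 1 copy of Cx3cr1 carries a tamoxifen-inducible Cre with a yellow fluorescent protein and 1 Rosa26 copy carries a Cre-dependent red one. The second, called the wild-type library, held macrophages together with dendritic cells (DCs) of C57BL/6 mice given as wild type. Mice of both were 8 to 12 weeks old and at steady state, that is, uninjured. A further library, from mice of the reporter genotype and the same ages at day 11 after myocardial infarction, gave 4120 cells by the same rule and serves only as an added point beside each value. Hearts were digested with collagenase, DNase and hyaluronidase in the presence of flavopiridol, an inhibitor of transcription, and leukocytes were enriched on CD45 beads. Macrophages were gated as live CD45+CD11b+ cells with low to high CD64, and DCs as CD45+ cells without CD64 that carried CD11c and MHC class II. The labels state neither how many animals were pooled in a library nor whether tamoxifen was given, and the 2 steady-state libraries differ in genotype, in gate and in preparation at once, so these cannot be told apart. With 1 library in each group there is no spread between animals and no test; intervals are exact 95% intervals that cover counting error only.

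Macrophages of the adult heart are commonly divided by origin. Resident cells, many of them seeded before birth and kept up by local division, carry the phosphatidylserine receptor Timd4, the hyaluronan receptor Lyve1 and the folate receptor Folr2, while cells replaced from blood monocytes carry the chemokine receptor Ccr2 and more MHC class II. The C1q genes encode the chains of complement component C1q, which most tissue macrophages make and most DCs do not.

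The reporter cells were sequenced deeper, with a median of 10202 UMIs and 2876 genes per cell against 4467 and 1499 in the wild-type cells, and 18158069 against 2799043 UMIs in all. C1q held a median of 204 and 178 UMIs per 10000, and its summed level was 20447 and 17702 CPM (counts per 1000000 UMIs, over all but the reporter entries). The nearest cells inside and outside the C1q limit held 40.1 and 39.7 per 10000 in the reporter library and 40.7 and 35.1 in the wild-type library. For Retnla they held 49 and 50 UMIs, and 46 and 55. Of the wild-type barcodes that passed the gene and mitochondrial limits, 802 of 1767 held under 5 C1q UMIs per 10000, against 0 of 1767 in the reporter library, where 45 held under 40. The libraries shared 7 barcode sequences, of which 1 belonged to a kept cell in both. Barcodes with at least 3 Xist UMIs and at least 1 UMI of a Y-linked gene made up 12.5% of the reporter cells (183 of 1466, 10.8 to 14.3) and 0.891% of the wild-type cells (5 of 561, 0.290 to 2.07). They held a median of 20296 UMIs in the reporter library, against 10736 in cells with Xist alone and 9609 in cells with Y-linked UMIs alone. Values of Timd4, Ccr2, Plac8 and Irf7 in Timd4-positive cells are therefore also given without them, and other values include them. Leaving them out would not remove a barcode that merged cells with Xist alone, or cells with Y-linked UMIs alone.

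**Figure D1:**
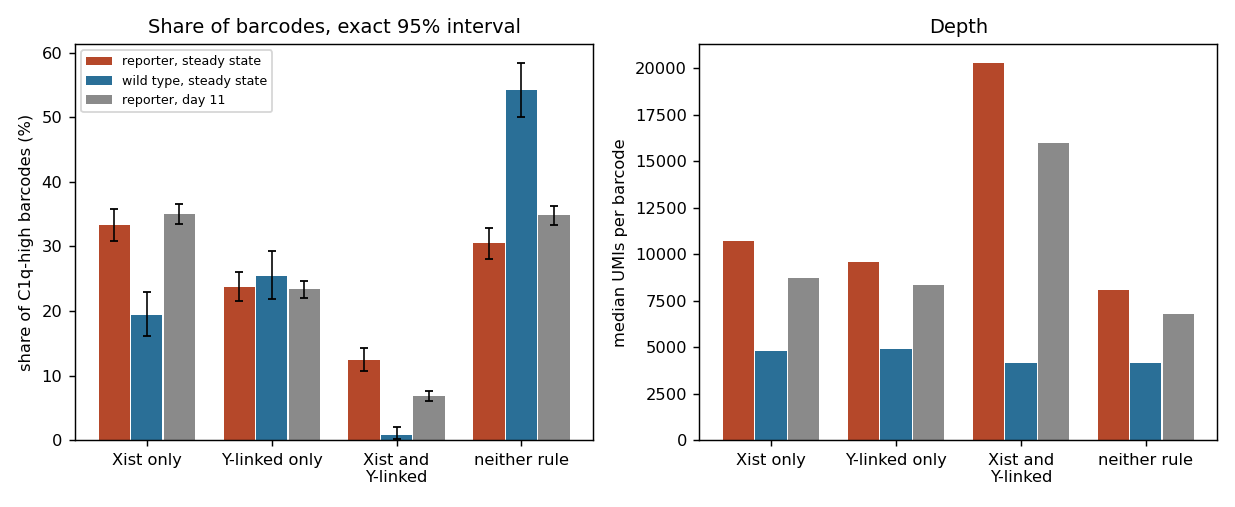
Share of barcodes (left, exact 95% intervals) and median UMIs per barcode (right) for the kept cells of the 3 libraries. Barcodes are grouped by whether they held Xist UMIs only, Y-linked UMIs only, both or neither. Both kinds were found in 12.5% of reporter cells, 0.891% of wild-type cells and 6.87% of day 11 cells, and the reporter barcodes with both were the deepest class of that library.

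The first question was whether the 2 libraries hold the same kinds of macrophage. Each cell was thinned to 3000 UMIs, because deeper cells more often show a gene, and 120 wild-type cells below that depth were left out. Cells with a Timd4 UMI made up 25.6% of the reporter cells (23.4 to 27.9) and 14.7% of the wild-type cells (11.6 to 18.4). Lyve1 was found in 45.4% (42.9 to 48.0) and 23.4% (19.5 to 27.6), and Folr2 in 77.6% (75.4 to 79.7) and 41.3% (36.6 to 46.0). All 3 resident genes were thus detected in a larger share of the reporter cells, with intervals that do not overlap. For Ccr2, 25.5% (23.3 to 27.8) and 29.3% (25 to 33.7) of cells had a UMI, and for Cx3cr1, the fractalkine receptor, 42.1% (39.5 to 44.7) and 42.2% (37.5 to 46.9); both pairs overlap. The monocyte gene Ly6c2 was found in 2.18% (1.5 to 3.07) and 1.13% (0.369 to 2.63). Cycling cells, those that held 3 or more of 25 cell cycle genes, made up 18.7% (16.7 to 20.8) and 8.39% (5.98 to 11.4). At day 11 the shares were 3.24% for Timd4, 7.80% for Lyve1, 28.1% for Folr2, 33.1% for Ccr2 and 9.48% for cycling cells. Without thinning, Timd4 stood at 53.5% and 18.0%, Lyve1 at 68.1% and 25%, Folr2 at 93.2% and 40.1%, Ccr2 at 45.1% and 32.1%, Ly6c2 at 7.16% and 1.25%, Cx3cr1 at 72.6% and 54.7% and cycling cells at 58.9% and 14.6%. As a background, the 777 wild-type cells under 5 C1q UMIs per 10000 with enough depth, which had a median of 10206 UMIs, held Timd4 in 5.53%, Lyve1 in 0.644%, Folr2 in 1.80%, Ly6c2 in 2.06% and Cx3cr1 in 5.02%. Ccr2 was found there in 52.4% and cycling genes in 19.2%, above the kept cells, so that set is no background for these 2 measures. In the reporter library the only background was 45 cells under 40 C1q UMIs per 10000. They held Timd4 in 8.89%, Lyve1 in 6.67%, Folr2 in 46.7% (31.7 to 62.1), Ly6c2 in 24.4%, Cx3cr1 in 26.7% and cycling genes in 8.89%. Ccr2 was found there in a larger share than in the kept reporter cells, so that set is no background for it. The Folr2 interval there includes the 41.3% of the wild-type kept cells. The part of background in the Folr2 difference between the libraries was not tested. Both sets also held Ly6c2 in a larger share than the kept cells of their library, so neither is a background for it. The Ly6c2 shares are not read as expression.

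**Figure D2:**
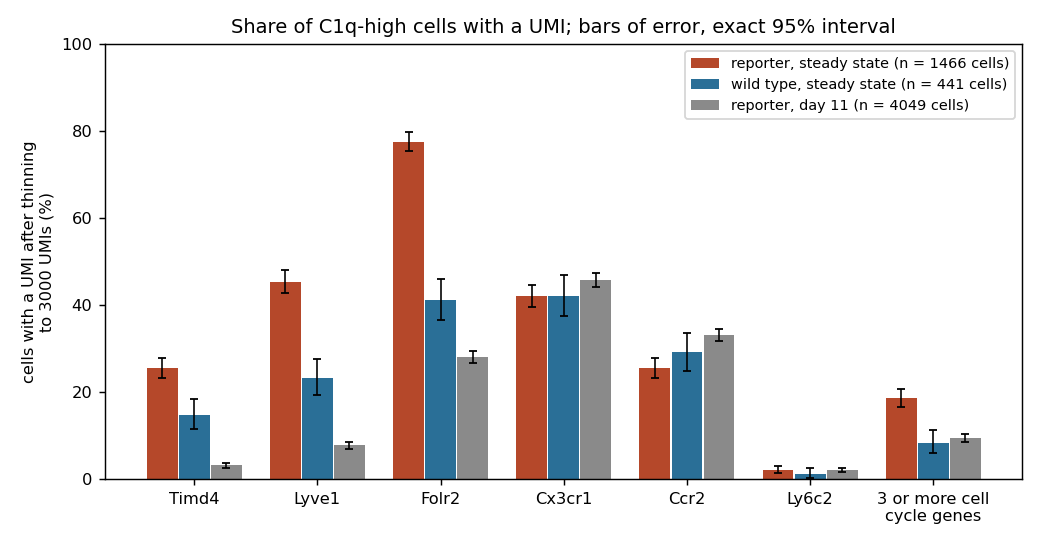
Percent of cells with at least 1 UMI of a gene, or with at least 3 cell cycle genes, after thinning each cell to 3000 UMIs, in the reporter, wild-type and day 11 libraries (bars are exact 95% intervals). Timd4, Lyve1, Folr2 and cycling cells are more frequent among reporter than wild-type steady-state cells, and the Ccr2 and Cx3cr1 intervals overlap.

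Over all kept cells, 4848 genes had a mean of at least 20 CPM in the 2 libraries and are called tested here. Of these, 3.16% were at least 2-fold apart: 127 genes (2.62%) were higher in the reporter library and 26 (0.536%) lower, which are the genes called higher and lower below; pairs of levels are given as reporter against wild type. The median tested gene stood at a log2 ratio of 0.18, so the zero of the scale is not the middle of the genes. Scaling by the trimmed mean of M values (TMM, a method that centres most genes) moved that median by -0.22 and gave 55 genes higher and 52 lower, so the share of called genes that were higher was 83.0% with totals and 51.4% with TMM. The plot of levels shows the genes named here against the rest. For scale, 3.36% of 5035 genes were 2-fold apart between day 11 and the reporter library, and 4.67% of 4755 between day 11 and the wild-type library; these comparisons share their libraries.

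**Figure D3:**
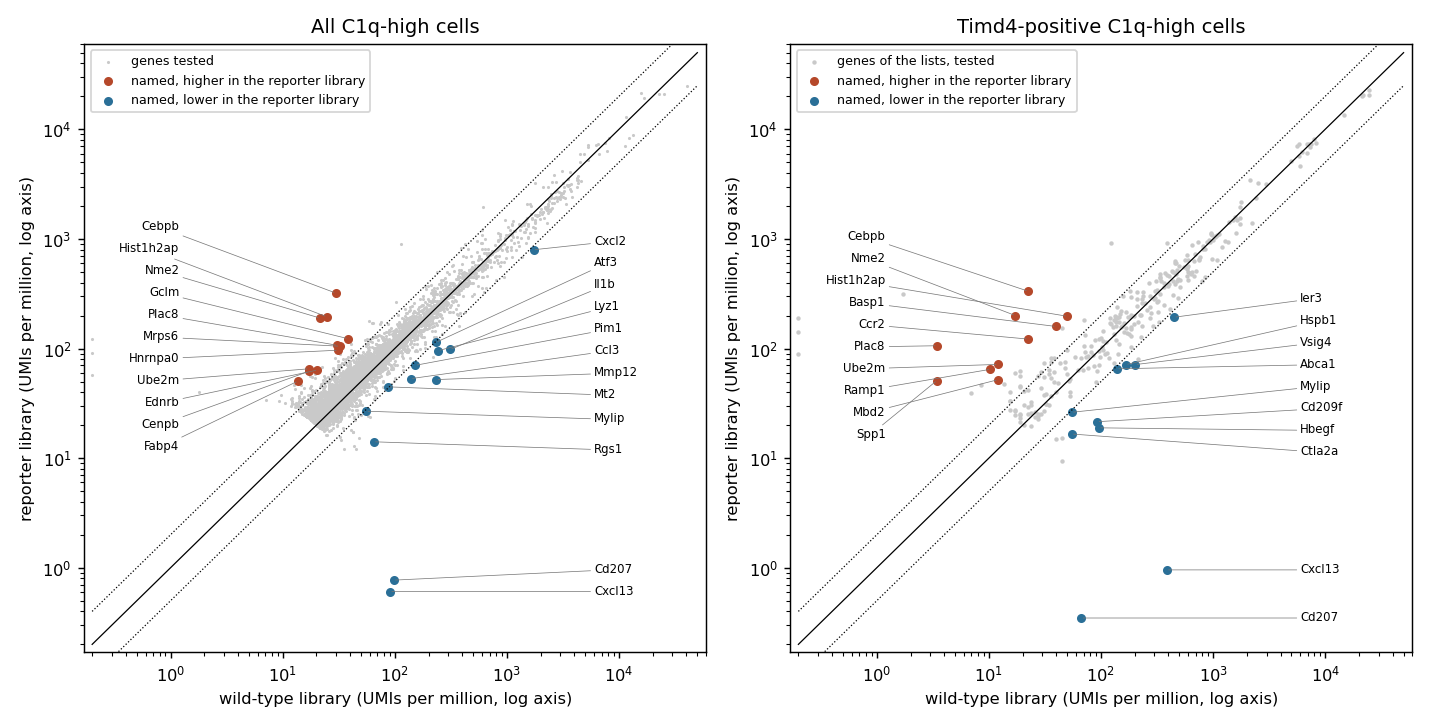
Levels in the wild-type (x) and reporter library (y), in CPM on log axes, of all tested genes over all kept cells (left) and of the tested genes of the lists in Timd4-positive cells (right), with genes named by rank in colour; dotted lines mark 2-fold and values below the axis are drawn at its edge. Cebpb and Nme2 lie above the upper line and Cd207 and Cxcl13 far below the lower one in both panels.

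Resident macrophage genes stood higher in the reporter library when all cells were summed. Of the 18 tested genes of a list of 20, 4 were higher, where 2.62% of all tested genes were, and none was lower. The median log2 ratio was 0.69, against 0.18 for all tested genes, and 17 of 18 were above 0. In summed counts, more cells of a kind and more RNA per cell cannot be told apart. Lyve1 stood at 379 against 212 CPM (1.79-fold higher, 1.65 to 1.95), with 59.3 CPM at day 11. Folr2 stood at 1080 against 599 CPM (1.80-fold higher, 1.72 to 1.90), with 287 CPM at day 11. F13a1, the A subunit of coagulation factor XIII, stood at 1210 against 603 CPM and 347 CPM at day 11, and Gas6, a bridging ligand for the receptors Axl and Mertk in the uptake of dying cells, at 499 against 238 CPM and 256 CPM. Of the scavenger receptors, Stab1 stood at 373 against 188 CPM and Cd163 at 192 against 160 CPM. Ednrb, the endothelin B receptor, differed most on the list, with 63.6 against 20.4 CPM (3.12-fold higher, 2.39 to 4.15). The order of the libraries for Lyve1, Folr2 and F13a1 was therefore reporter, wild type, day 11, as it was for the shares of cells with Lyve1 and Folr2. With the 4 strata described below weighted alike, the log2 ratios were 0.43 for Ednrb, 0.20 for Gas6 and -0.04 for F13a1, and none of these 3 was called.

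Within Timd4-positive cells the resident genes stood the other way. The 784 reporter and 101 wild-type cells with a Timd4 UMI gave 4924 tested genes, of which 3.57% were higher (176) and 0.650% lower (32), 4.22% in all, with a median log2 ratio of 0.10. Against this background, 20 resident genes were tested and none was higher, 3 were lower, the median was -0.34, and 15 of 20 were below 0. Vsig4, a complement receptor of resident macrophages, stood at 71.4 against 203 CPM and 103 CPM at day 11 (2.84-fold lower, 2.32 to 3.44). Cd209f and Cd209g, lectins of the DC-SIGN family, stood at 21.5 against 92.7 CPM and 9.39 against 44.6 CPM; as near copies within 1 gene family they may share reads, and 8 wild-type cells held all 54 UMIs of Cd209f. Cd163 stood at 230 against 415 CPM (1.81-fold lower, 1.58 to 2.06), Lyve1 at 502 against 642 CPM, Folr2 at 1360 against 1740 CPM and F13a1 at 1490 against 1500 CPM. The Timd4-negative cells, 682 and 460 in number, gave 4787 tested genes, of which 2.63% were higher (126) and 0.501% lower (24), 3.13% in all, with a median of 0.17. There 3 of 18 resident genes were higher and the median was 0.70. These were Ednrb at 32.0 against 8.12 CPM, Gas6 at 379 against 169 CPM and Stab1 at 301 against 147 CPM, and Folr2 was just short of 2-fold with 597 against 300 CPM. A cell needs only 1 Timd4 UMI to enter the positive set, and that set had a median of 12948 UMIs in the reporter library and 5540 in the wild-type library, so the requirement was stricter for the shallower wild-type cells. Without the barcodes that held both Xist and Y-linked UMIs, Timd4 itself stood at 191 against 328 CPM within the positive cells. When Timd4 was read after thinning, the list's median in positive cells was -0.10 and Vsig4, at -0.85, was not called.

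MHC class II genes, which present antigen to CD4 T cells, stood lower in the reporter library over all cells, though short of 2-fold. None of 8 tested was called, where 3.16% of all tested genes were, and the median was -0.57. Their summed level was 50700 against 79600 CPM, with 46100 at day 11. Cd74, the invariant chain, stood at 25000 against 40600 CPM and 23200 CPM at day 11. H2-Ab1 stood at 8810 against 13200 CPM and H2-Eb1 at 7070 against 11400 CPM, while Ciita, the coactivator of these genes, stood at 31.7 against 26.4 CPM. In Timd4-positive cells the libraries were close, with a median of 0.03, Cd74 at 20200 against 21100 CPM and H2-Ab1 at 7290 against 7150 CPM. That closeness was not kept within cells of 1 class: the median was -0.61 in cells with Xist alone and 0.44 in cells with Y-linked UMIs alone. H2-Aa stood there at 5530 against 8900 CPM (1.61-fold lower, 1.52 to 1.70) and at 7460 against 5440 CPM (1.37-fold higher, 1.29 to 1.46). The wild-type values rest on only 25 and 31 cells, and these intervals leave out the spread between cells. The difference between the classes was not tested. In Timd4-negative cells Cd74 stood at 33400 against 45700 CPM.

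The genes of monocytes and CCR2 macrophages gave a median of -0.57 over 13 tested, with 1 called higher and 1 lower. Of all tested genes, 2.62% were higher and 0.536% lower. Ccr2 stood at 164 against 264 CPM and 229 CPM at day 11 (1.61-fold lower, 1.48 to 1.74). S100a4 stood at 327 against 619 CPM and Fn1, fibronectin, at 15.7 against 32.2 CPM. Plac8, a monocyte gene of uncertain function, stood the other way, with 107 against 30.7 CPM and 86.6 CPM at day 11 (3.50-fold higher, 2.82 to 4.39). Both libraries were then weighted to the same make-up of 4 strata: Timd4-positive, Timd4-negative with Lyve1 or Folr2, Ccr2 without these, and none of them. The medians became -0.29 for the resident list, 0.14 for MHC class II and 0.21 for the monocyte list. Each had the opposite sign to the unweighted value. Cells were assigned to strata from unthinned UMIs, in which Folr2 was found in 93.2% of reporter and 40.1% of wild-type cells. A stratum may therefore hold unlike cells in the 2 libraries, and Lyve1, Folr2 and Ccr2 are themselves on the lists. How far the weighted values depend on that was not tested.

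Within Timd4-positive cells, 3.57% of all tested genes were higher in the reporter library. Of the monocyte and CCR2 list 2 of 10 tested genes were, Plac8 and Ccr2, none was lower, and the median was 0.37. Plac8 had 1215 UMIs in the reporter and 2 in the wild-type cells, 106 against 3.43 CPM, a ratio of 30.8 (8.49 to 254), and 35.1% of the reporter UMIs lay in the 1% of cells that held most. Ccr2 had 1403 and 13 UMIs, 122 against 22.3 CPM, and 139 CPM at day 11 (5.46-fold higher, 3.18 to 10.3). Without the barcodes with both Xist and Y-linked UMIs, Ccr2 stood at 114 against 23.4 CPM, 4.85-fold higher (2.82 to 9.14). It stood at 91.9 against 44.7 CPM in cells with Xist alone, with an interval that includes equality, and at 126 against 5.28 CPM in cells with Y-linked UMIs alone. Plac8 without those barcodes stood at 88.6 against 3.60 CPM. Spp1, osteopontin, of the matrix list, had 586 and 2 UMIs, 50.9 against 3.43 CPM and 313 CPM at day 11, a ratio of 14.8 (4.09 to 123), with 47.3% of the reporter UMIs in that 1% of cells, whereas over all cells it stood at 61.7 against 34.7 CPM. Cx3cr1 stood at 240 against 139 CPM in these cells, short of 2-fold (1.73-fold higher, 1.38 to 2.18), and at 247 against 281 CPM in Timd4-negative ones. The wild-type positive cells number 101, so these low wild-type levels rest on few molecules.

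Of the genes named by rank over all cells, Cebpb had the highest ratio. It encodes the transcription factor C/EBP-beta, which acts in myeloid differentiation and inflammatory gene expression (chromosome 2, 167688915 to 167690418, plus strand, GENCODE vM21 on mm10). It had 5832 UMIs in the reporter cells and 83 in the wild-type cells, 321 against 29.7 CPM, and 345 CPM at day 11 (10.8-fold higher, 8.72 to 13.6). It was found in 87.4% of reporter and 13.5% of wild-type cells before thinning. It stood at 334 against 22.3 CPM in Timd4-positive cells (14.9-fold higher, 8.73 to 28.1) and at 300 against 31.6 CPM in Timd4-negative cells (9.49-fold higher, 7.48 to 12.2). Over the alternatives tried, its log2 ratio over all cells ranged from 3.22 to 3.63. Both libraries of the reporter genotype were high, and the wild-type library alone was low. Those 2 reporter tables also share 3 reporter entries that the wild-type table lacks, so the gene sets used for counting were not identical; whether this touches other genes was not tested.

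Other genes ranked among the 12 highest over all cells or were higher in both Timd4 subsets. Nme2, a nucleoside diphosphate kinase, stood at 190 against 21.4 CPM and 118 CPM at day 11 (8.86-fold higher, 6.86 to 11.6), while its neighbour and paralogue Nme1 stood at 154 against 156 CPM. Ube2m, the NEDD8-conjugating enzyme, stood at 65.3 against 17.1 CPM and 62.1 CPM (3.81-fold higher, 2.85 to 5.2). Gclm, the modifier subunit of the enzyme that starts glutathione synthesis, stood at 123 against 38.2 CPM, and Itgb5, the integrin beta 5 subunit, at 170 against 62.5 CPM and 306 CPM at day 11. Chka, choline kinase alpha, stood at 119 against 38.6 CPM. Further genes of the top 12 were Mrps6 (105 against 32.2 CPM), Cenpb (61.9 against 17.1 CPM) and Hnrnpa0 (96.5 against 31.1 CPM). The histone gene Hist1h2ap stood at 195 against 24.7 CPM and 54.9 CPM at day 11, with 44.2% and 75.4% of its UMIs in the 1% of cells that held most; it has many near-identical copies and is uncertain. Nme2, Cenpb and Mrps6 each overlap another gene of the tables on the same strand, so their counts depend on how such reads were assigned and are uncertain too. Those partners stood at 0.110 and 0.357 CPM for Gm20390 beside Nme2, 1.76 and 1.07 for Spef1 beside Cenpb, and 5.34 and 17.1 for Slc5a3 beside Mrps6. Of all tested genes with a position, 216 of 4842 (4.46%) overlap another on the same strand, as do 9 of the 126 higher genes (7.14%) and 0 of the 26 lower ones.

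Of 4546 genes tested in both subsets, 52 were higher in both, among 168 and 123 higher in each, and 6 were lower in both, among 17 and 17. The genes that met the naming limit of 50 CPM in both sets included Top2a, Plac8, Gclm, Itgb5 and Chka among the higher. Among the lower they were Cd207 and Mylip alone. Mylip, a ubiquitin ligase that degrades the LDL receptor, stood at 26.2 against 54.9 CPM in Timd4-positive and 27.8 against 55.9 CPM in Timd4-negative cells. Cd207, langerin, a lectin of Langerhans cells and some DCs, stood at 0.771 against 97.9 CPM (127-fold lower, 74.4 to 235) and 0.464 CPM at day 11, with 0.348 against 67.0 CPM in Timd4-positive cells and 1.5 against 106 CPM in Timd4-negative cells. Its UMIs lay in few cells: 23 of the 561 wild-type cells held it (4.10%), 83.2% of the 274 UMIs lay in the 1% of cells that held most, and 1 cell held 55. In Timd4-positive wild-type cells 3 cells held all 39, and 155 of the 274 came from cells with Xist alone.

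Interferon-stimulated genes stood higher in the reporter library in every set. Of 16 tested genes of a list of 23, 4 were called higher and none lower over all cells, where 2.62% of tested genes were called higher, with a median of 0.72 and 16 of 16 above 0. Rtp4, a chaperone of G protein-coupled receptors that interferon induces, stood at 180 against 58.9 CPM and 99.2 CPM at day 11 (3.05-fold higher, 2.61 to 3.59). Irf7, the transcription factor that amplifies type I interferon, stood at 58.8 against 27.2 CPM and 73.4 CPM (2.17-fold higher, 1.72 to 2.77). Oasl2, of the oligoadenylate synthetase family, stood at 87.2 against 40.4 CPM (2.16-fold higher, 1.78 to 2.64), and the antiviral gene Ifit3 at 48.6 against 22.9 CPM (2.12-fold higher, 1.65 to 2.78). The abundant members were nearer, with Ifitm3 at 2100 against 1500 CPM, Bst2 at 398 against 283 CPM and Ifi27l2a at 3230 against 1770 CPM. The whole list summed to 6880 against 4240 CPM. At day 11 it summed to 3860 CPM, below the wild-type library, although Rtp4 and Irf7 stood above it there.

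In Timd4-positive cells 7 of 15 were higher, where 3.57% of tested genes were, and the median was 0.96 with 14 of 15 above 0. Ifit3 stood at 46.5 against 8.58 CPM (5.42-fold higher, 2.31 to 16.7), Irf7 at 59.2 against 17.2 CPM (3.45-fold higher, 1.86 to 7.22) and Isg15, the ubiquitin-like modifier, at 73.9 against 30.9 CPM (2.39-fold higher, 1.5 to 4.05). Ifi47, an interferon-induced GTPase, stood at 56.7 against 27.5 CPM. Without the barcodes with both Xist and Y-linked UMIs, Irf7 stood at 59.8 against 18.0 CPM. In Timd4-negative cells 2 of 16 were higher, Rtp4 (177 against 55.9 CPM) and Oasl2 (95.5 against 41.5 CPM), with a median of 0.65. Over the alternatives tried, the list's median ranged from 0.49 to 0.83 in all cells, from 0.50 to 1.09 in Timd4-positive cells and from 0.43 to 0.86 in Timd4-negative cells, always above 0.

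Many interferon-stimulated genes are bound upstream of their start by ISGF3, whose core element is a repeat of GAAA. The RefSeq promoters of GRCm38.p6 (250 bases before to 50 after the gene start) were searched on both strands for GAAANNGAAA, which reads TTTCNNTTTC on the other strand. It was found in 943 of 27025 promoters (3.49%) and in 149 of 3770 promoters of tested genes (3.95%). Of the 16 list members with an entry, tested or not, 9 held it (56.2%). Of the 10 that were tested, 6 held it. The tested members Irf7, Oasl2, Ifi47 and Xaf1 had no match in this window, and Rtp4 had no entry. The 200 bases before the start are shown for a pair of list members with several matches, at chr19:34583329-34583528 on the plus strand for Ifit3 and chr4:156200819-156201018 on the minus strand for Isg15; capitals mark the matches, which overlap in Isg15.
Ifit3: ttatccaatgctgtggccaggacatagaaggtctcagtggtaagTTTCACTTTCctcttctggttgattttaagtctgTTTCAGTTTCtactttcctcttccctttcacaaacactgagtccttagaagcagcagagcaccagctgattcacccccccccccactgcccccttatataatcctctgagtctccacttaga
Isg15: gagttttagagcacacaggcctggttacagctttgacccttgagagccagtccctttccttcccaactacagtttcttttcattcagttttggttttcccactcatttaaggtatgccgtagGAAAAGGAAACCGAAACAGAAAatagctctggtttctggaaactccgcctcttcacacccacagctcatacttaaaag
A match describes the letters only, and no binding was measured in these cells.

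Class I presentation genes, which interferon also induces, gave a median of 0.26 over 12 tested in all cells. None was called, where 3.16% of all tested genes were. The non-classical H2-T23 stood at 347 against 191 CPM, and the chains B2m and H2-K1 at 5230 against 5330 CPM and 1080 against 1120 CPM. In Timd4-positive cells the median was 0.48 and 1 of 12 was higher, where 3.57% of all tested genes were. It was the peptide transporter Tap1, with 81.9 against 37.8 CPM.

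Inflammatory genes were mostly lower in the reporter library over all cells. Of 19 tested cytokines, chemokines and feedback genes, 5 were lower, where 0.536% of tested genes were, 1 was higher, 13 of 19 were below 0, and the median was -0.47. Il1b stood at 98.0 against 312 CPM and 199 CPM at day 11 (3.19-fold lower, 2.94 to 3.46). The neutrophil chemokine Cxcl2 stood at 796 against 1730 CPM and 852 CPM (2.18-fold lower, 2.11 to 2.25), and Cxcl1 at 15.3 against 48.2 CPM. Ccl3 stood at 53.1 against 139 CPM (2.62-fold lower, 2.33 to 2.96). The B cell chemokine Cxcl13 stood at 0.606 against 90.7 CPM (150-fold lower, 82.3 to 304), but 98.8% of its wild-type UMIs lay in the 1% of cells that held most, and 1 cell held 215 of the 254. Ccl7, a monocyte chemokine, went the other way with 175 against 75.7 CPM (2.31-fold higher, 2.01 to 2.67). With the 4 strata weighted alike, the log2 ratios were -0.38 for Il1b, -0.63 for Cxcl2, -0.62 for Ccl3 and -0.78 for Mmp12, against -1.67, -1.12, -1.39 and -2.17, so none of these 4 was called lower. Pim1, at -0.34, and Atf3, at -0.75, also fell short of 2-fold under that weighting. In cells with Y-linked UMIs alone, Cxcl2 stood at -0.80 and Ccl3 at -0.70.

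In Timd4-positive cells several of these genes stood nearer to each other in the 2 libraries. Il1b stood there at 67.1 against 77.3 CPM and Ccl3 at 48.4 against 41.2 CPM, against 151 against 374 CPM and 61.2 against 165 CPM in Timd4-negative cells; the difference between the subsets was not tested. Cxcl1 was lower in both, with 15.3 against 44.6 CPM and 15.2 against 49.2 CPM. Other genes among the 12 lowest over all cells were Rgs1, a regulator of chemokine receptor signalling (14.1 against 65.0 CPM), the kinase gene Pim1 (70.3 against 153 CPM), the metallothionein Mt2 (44.7 against 87.2 CPM) and Lyz1 (95.8 against 245 CPM), a lysozyme whose counts are uncertain beside its abundant paralogue Lyz2 (19400 against 16700 CPM). Mmp12, macrophage elastase, stood at 52.1 against 235 CPM over all cells, at 33.1 against 15.5 CPM in Timd4-positive cells (2.14-fold higher, 1.12 to 4.72) and at 85 against 292 CPM in Timd4-negative cells (3.44-fold lower, 3.07 to 3.86), so its direction differed between the subsets. The wild-type Timd4-positive cells held 9 of its UMIs, and the difference between the subsets was not tested.

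**Figure D4:**
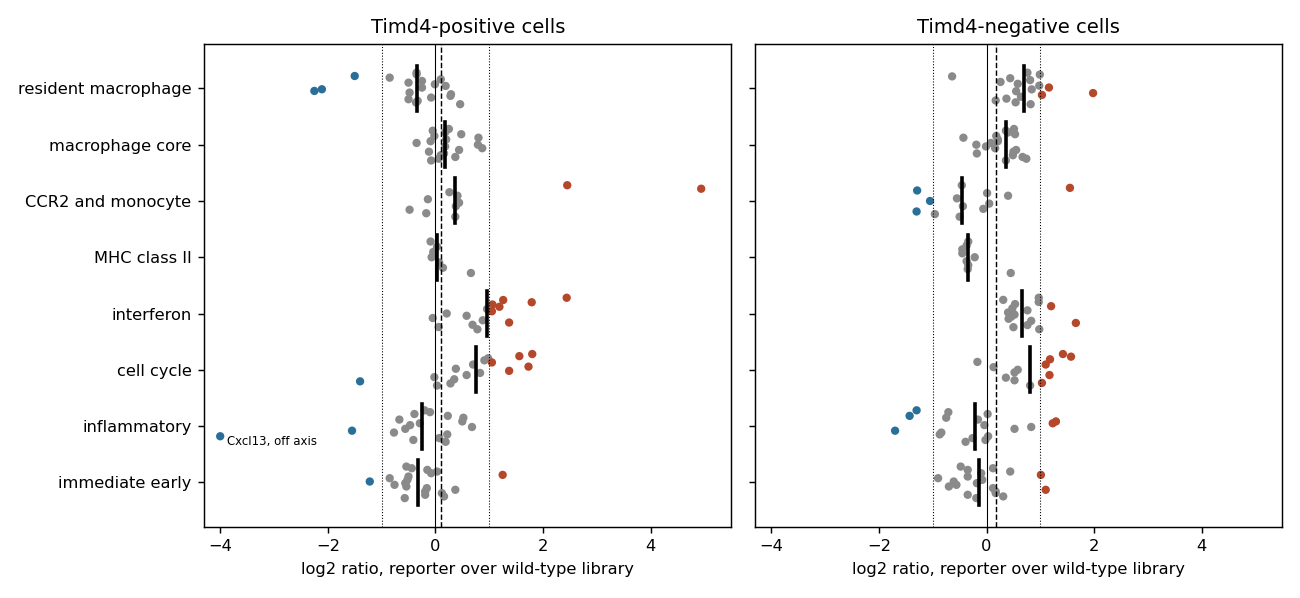
Log2 ratio of the reporter over the wild-type library for tested members of 8 gene lists, in Timd4-positive and Timd4-negative cells; each point is a gene, bars are list medians, the dashed line is the median of all tested genes and dotted lines are 2-fold (Cxcl13 lies off the axis). The interferon median lies above the dashed line in both sets, and the resident median lies below it in Timd4-positive cells and above it in Timd4-negative cells.

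Immediate early genes are induced within minutes of a stimulus, and tissue digestion can induce them. Their median was -0.27 over 20 tested, with 2 higher and 1 lower, where 2.62% and 0.536% of all tested genes were. Atf3, a stress-induced factor, stood at 114 against 234 CPM (2.05-fold lower, 1.88 to 2.24), Fos at 1010 against 1530 CPM, Egr1 at 448 against 618 CPM, Dusp1 at 302 against 488 CPM and Zfp36 at 205 against 359 CPM. Jun stood at 490 against 395 CPM. Jund stood at 896 against 421 CPM (2.13-fold higher, 2.01 to 2.26), with 914 against 385 CPM and 865 against 430 CPM in the Timd4-positive and Timd4-negative cells. Klf2 stood at 831 against 386 CPM, and at 945 against 730 CPM in Timd4-positive cells. Ier3 was called lower in Timd4-positive cells, with 193 against 450 CPM. Heat shock genes gave a median of -0.14 over 14 tested and none was called; Hspa1a stood at 1550 against 1520 CPM and 530 CPM at day 11, and Dnajb1 at 136 against 265 CPM. In Timd4-positive cells the small heat shock protein Hspb1 stood at 71.4 against 167 CPM (2.33-fold lower, 1.87 to 2.88).

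Cell cycle genes were higher in the reporter library, as was the share of cycling cells. Of 13 tested, 5 were higher, where 2.62% of all tested genes were, and 13 of 13 were above 0, with a median of 0.81. The proliferation marker Mki67 stood at 42.7 against 12.9 CPM and 23.9 CPM at day 11 (3.32-fold higher, 2.38 to 4.77), and the topoisomerase Top2a at 54.9 against 18.2 CPM and 31.8 CPM (3.01-fold higher, 2.27 to 4.08). Birc5, survivin, stood at 73.5 against 33.9 CPM and the kinase Cdk1 at 41.2 against 18.9 CPM. The medians were 0.76 over 16 genes in Timd4-positive cells, where the ribonucleotide reductase subunit Rrm2 was lower with 14.9 against 39.5 CPM, and 0.81 over 13 genes in Timd4-negative cells. With at least 2 Timd4 UMIs required, the median in positive cells was -0.14.

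Lists of macrophage function differed in how many of their genes were called. For comparison, 2.62% of all tested genes were higher and 0.536% lower over all cells. None of the 19 tested core macrophage genes was called over all cells (median 0.28): Csf1r, the receptor for the growth factor CSF1, stood at 1140 against 836 CPM, and Adgre1, which encodes F4/80, at 479 against 394 CPM. None of 22 tested lysosomal genes was called (median 0.19) and none of 22 nuclear respiratory chain genes (median 0.10). Among genes of lipid handling 1 of 14 was higher and 1 lower, with Lpl, lipoprotein lipase, at 316 against 227 CPM and Fabp5, a fatty acid binding protein, at 43.4 against 68.6 CPM and 356 CPM at day 11. The cholesterol exporter Abca1 stood at 65.3 against 139 CPM in Timd4-positive cells (2.13-fold lower, 1.67 to 2.68) and at 48.0 against 49.2 CPM in Timd4-negative cells. Of 12 tested genes of iron and haem handling 2 were higher: Slc40a1, ferroportin, with 68.1 against 32.9 CPM, and Cp, ceruloplasmin, with 35.1 against 12.1 CPM. Ferroportin stood at 69.9 against 85.8 CPM in Timd4-positive and 65.0 against 18.9 CPM in Timd4-negative cells. Of 12 tested genes for the uptake of dying cells 2 were higher, Gas6 and Itgb5, and 11 were above 0 (median 0.40). Of 6 tested growth factors 1 was lower, Hbegf, with 17.3 against 42.5 CPM over all cells. Hbegf stood at 18.9 against 96.1 CPM in Timd4-positive cells (5.10-fold lower, 3.73 to 6.87). Of 13 tested glycolytic genes only Pgk1 was called, with 56.1 against 23.2 CPM.

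Some further genes were named by rank in Timd4-positive cells. Among the higher, Ramp1, a receptor activity-modifying protein of the CGRP receptor, stood at 64.6 against 10.3 CPM but at 80.5 against 84.0 CPM over all cells. Mbd2, which binds methylated DNA, stood at 51.9 against 12.0 CPM and Basp1, a membrane-bound signalling protein, at 159 against 39.5 CPM and 192 CPM at day 11. Among the lower, Ctla2a, a cysteine protease inhibitor, stood at 16.6 against 54.9 CPM, with its 32 wild-type UMIs in 8 cells. Abca1 and Ctla2a changed direction among cells with Xist alone, where their log2 ratios were 0.40 and 1.5.

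Markers of other cells were low in both libraries. Of the tested genes of type 2 DCs, 2 of 6 were lower in the reporter library, where 0.536% of all tested genes were. These were Itgax with 12.0 against 35.0 CPM and Tnip3 with 12.9 against 42.9 CPM. Of the 6, 3 stood above a log2 ratio of 0 and 3 below, with a median of -0.41. Of the tested genes of type 1 DCs, 0 of 7 were lower. The summed level of the general DC list was 199 against 312 CPM, with no member at 0 in either library. Type 1 and type 2 DC lists summed to 6660 and 7450 and to 1410 and 1290 CPM, lists that hold genes macrophages also express, such as Cst3 and Mgl2. Migratory DC genes summed to 704 and 798 CPM and plasmacytoid DC genes to 575 and 434, with none of 1 and 2 tested called. The endothelial list summed to 110 against 52.2 CPM, of which Fabp4 made up 50.3 against 13.6 CPM; Fabp4 stood at 2500 CPM in the 45 reporter cells under the C1q limit. Fibroblast genes summed to 245 against 188 CPM, cardiomyocyte genes to 214 against 183, B cell genes to 68.3 against 22.9 with 5 of 7 at 0 in the wild-type library, neutrophil genes to 23.5 against 17.9 with 7 of 11 at 0 there, and T and NK cell genes to 8.76 against 5.0 with 9 of 12 at 0 there. Mural genes summed to 6.83 against 2.50 CPM and eosinophil and mast cell genes to 1.71 against 1.79. The platelet list summed to 4190 against 3090 CPM, nearly all of it Pf4, which resident macrophages express. The part of these cells in any gene's difference was not tested.

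The alleles of the reporter mice were read where the tables allow. EYFP was found in 586 of the 1466 reporter cells (50.2 CPM), TdTomato in 12.8% (14.1 CPM) and CreERT2 in 1.36% (1.16 CPM), against 25.2% and 1.55% for EYFP and TdTomato at day 11. TdTomato was found in 14.9% of Timd4-positive and 10.4% of Timd4-negative reporter cells, without thinning. Cx3cr1, of which 1 copy is replaced in these mice, stood at 243 against 252 CPM and 233 CPM at day 11. Of 36 tested genes within 10 Mb of Cx3cr1 on chromosome 9, none was called over all cells (median 0.16), where 3.16% of all tested genes were. In Timd4-positive cells 1 of 36 was, Ccr2, where 4.22% of all tested genes were. Within 10 Mb of the Rosa26 locus on chromosome 6, 1 of 40 was higher over all cells, where 2.62% of all tested genes were. It was the semaphorin receptor gene Plxnd1 (median of the 40, 0.15). Nnt, which is disrupted in some C57BL/6 substrains, stood at 12.3 against 12.1 CPM.

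Whole classes of transcripts were shifted between the libraries. Of 81 ribosomal protein genes none was called, but 75 were below 0 with a median of -0.27, and together they made up 16% of reporter and 19.4% of wild-type UMIs. Mitochondrial transcripts made up 3.56% and 2.62%, with a median of 0.40 over 12 and only mt-Atp8 called, at 897 against 113 CPM and 369 CPM at day 11; it overlaps mt-Atp6 (7150 against 5290 CPM) and is uncertain. Ratios also followed the GC content of the transcripts. In the tenth of genes with the least GC (31.9 to 40.9%) the median log2 ratio was 0.04 and 1.44% were called, and in the tenth with the most (57.2 to 69.4%) it was 0.28 and 7.63% were called, 35 higher and 2 lower. Across 4842 genes Spearman's rho of the ratio with GC was 0.22, against 0.23 for day 11 over wild type and 0.02 for day 11 over the reporter library; genes are not independent and the comparisons share libraries. Cebpb has 67.2% GC. With ratios centred within the GC groups, a setting chosen after seeing the data, its log2 ratio was 3.34 against 3.44, and 116 genes were higher and 31 lower over all cells.

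**Figure D5:**
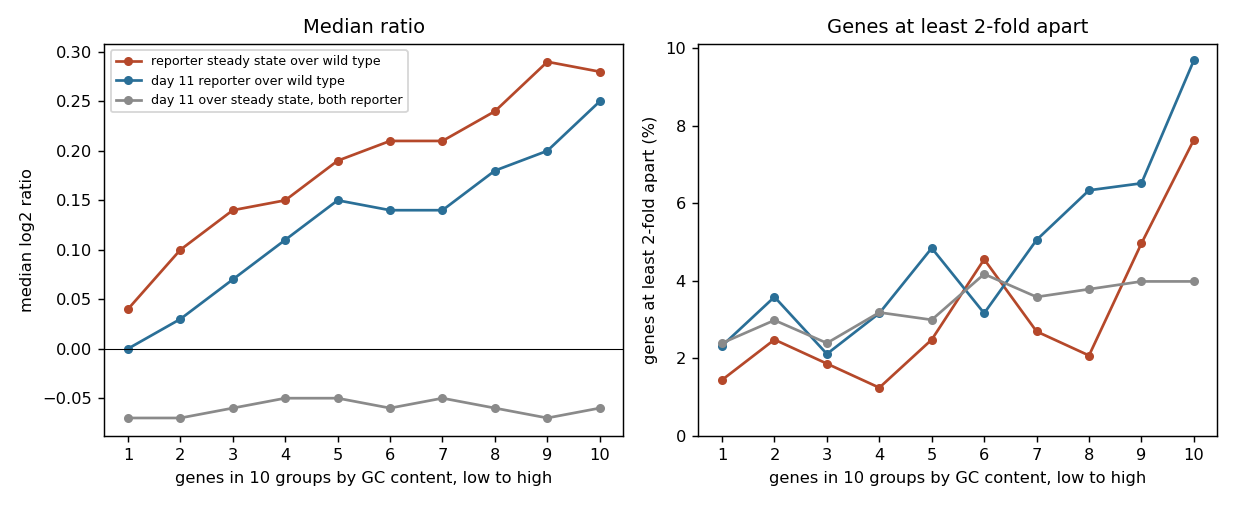
Median log2 ratio (left) and percent of genes at least 2-fold apart (right) in 10 groups of tested genes by GC content of their transcripts. Lines show reporter over wild type, day 11 over wild type and day 11 over reporter. Both ratios over the wild-type library climb with GC, to 0.28 and 7.63% called for reporter over wild type in the highest group.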

How the data were processed

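The deposited values are raw counts, UMI counts per gene and cell barcode, that the authors made with Cell Ranger and STAR on mm10, per the submitters' processing notes (versions: not given in the sources used here). Chemistry was 10x Chromium 3′ v2, per the labels. The 3 tables share 27998 genes, and those of the reporter mice hold 3 reporter entries more.

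UMIs were summed over the kept cells of a library and divided by the total without reporter entries to give CPM. Ratios of CPM have exact conditional (Clopper-Pearson) 95% intervals from the UMI counts, and shares have Clopper-Pearson 95% intervals. Tested genes had a mean of at least 20 CPM over the 2 libraries, and called means at least 2-fold apart. A count of 0 was bounded with 3 counts summed over the cells of a library. No p-value is given, because there is 1 library per group; whether separate animals were used is not said in the labels. No barcode was removed as a doublet; removing those with the highest Scrublet scores, 26 and 25 in number, was an alternative.

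The naming rule took the 12 highest and 12 lowest ratios over all cells and 10 in each direction in Timd4-positive cells, with at least 50 CPM in either library. It also took 10 in each direction that were called alike in Timd4-positive and Timd4-negative cells. It left out genes of the cell rule, sex-linked and unnamed genes, and those for ribosomal proteins, haemoglobin, immunoglobulin and mitochondrial transcripts. Genes on any of the 39 lists could be named as well. Single values of some genes that met these rules are not reported here. The cells, lists and rules were chosen with earlier results of these data known. Positions and transcript GC content came from GENCODE vM21, and promoter sequences from RefSeq on GRCm38.p6. Overlap was counted from whole gene spans on the same strand. The procedure was tested on simulated data. Work was done in Python 3.11.15 with numpy 2.4.6, scipy 1.17.1, scanpy 1.11.5 and matplotlib 3.10.9. Alternatives changed the scaling, filters, depth, doublets, cell rule, make-up and the barcodes with Xist and Y-linked UMIs.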

Additional observations from a re-analysis of the deposited data

Results flagged for a closer look

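Haemoglobin transcripts, which the naming rule leaves out, appeared in the reporter cells. Hbb-bs stood at 205 CPM in the reporter and 0.715 CPM in the wild-type library, and 1 reporter cell held 3465 of its UMIs. Hba-a1 stood at 123 CPM, Hba-a2 at 91.3 and Hbb-bt at 57.9, each against a count of 0 in the wild-type library, where 3 counts would be 1.07 CPM; the alpha copies share reads and are uncertain. The mitochondrial transcript mt-Atp8 stood at 897 CPM in the reporter, 113 in the wild-type and 369 in the day 11 library.

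Barcodes with both Xist and Y-linked UMIs made up 12.5% of the reporter cells, above the 0.891% of the wild-type library. Of these 183 barcodes, 132 were Timd4-positive, and Scrublet's removal by number took 3.

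The log2 ratio of Mmp12 was 1.10 in Timd4-positive and -1.78 in Timd4-negative cells, and that of the unnamed gene 2810417H13Rik was -1.01 and 1.15. These 2 genes alone were called in opposite directions, and the difference between the subsets was not tested.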

How the results depend on the processing

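Of 3330 gene values under the alternatives 3041 kept their direction and side of 2-fold, 123 were no longer called, 92 became called, 70 values under 2-fold changed sign and 4 of at least 2-fold reversed, of which Cd209f in Timd4-negative cells was below the limit for tested genes. The settings that split cells by Xist and Y-linked UMIs and the centring by GC were chosen after seeing the data. No paired analysis was possible because each group has 1 library and no test was run. Counts of genes higher and lower in the reporter library, 127 and 26 over all cells, were 55 and 52 with TMM, 43 and 11 from 50 CPM, 1351 and 1540 without a filter and 284 and 47 in cells with Xist alone; totals without mitochondrial and ribosomal protein genes gave 40 lower. In Timd4-positive cells, 176 and 32 became 342 and 71 with cells thinned to 3000 UMIs, 47 and 11 from 50 CPM, 308 and 52 from 20 CPM in either library, 1202 and 2388 without a filter, 489 and 210 in cells with Xist alone and 408 and 155 in cells with Y-linked UMIs alone; TMM gave 116 higher and a minimum of 2 Timd4 UMIs gave 68 lower. In Timd4-negative cells, 126 and 24 became 50 and 45 with TMM, 35 and 11 from 50 CPM, 1365 and 838 without a filter, 365 and 63 in cells with Xist alone and 256 and 50 in cells with Y-linked UMIs alone; totals without those genes gave 39 lower and 20 CPM in either library 201 higher. The filters change how many genes are tested and the Xist and Y-linked splits how many UMIs; for the others the cause was not tested.

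Weighting the strata alike reversed the medians of the resident list (-0.29 in all cells, -0.32 in Timd4-negative cells), the monocyte list (0.21) and MHC class II (0.14), and F13a1 (-0.04); it also took Il1b to -0.38, Cxcl2 to -0.63, Ccl3 to -0.62 and Mmp12 to -0.78 over all cells. Those strata were assigned from unthinned UMIs, although depth differed between the libraries. The cell cycle median in Timd4-positive cells was -0.14 with at least 2 Timd4 UMIs. Among Timd4-positive cells with Xist alone, Abca1 had a log2 ratio of 0.40 and Ctla2a of 1.5, and Cd209f stood at -0.03 in Timd4-negative cells with Timd4 read after thinning. Vsig4 in Timd4-positive cells ranged from -1.72 to -0.40 and Ccr2 there from 1.04 to 4.58. Thinned to 2000 UMIs, the reporter shares were 17.5% for Timd4, 39.2% for Lyve1, 68.6% for Folr2, 20.6% for Ccr2, 31.7% for Cx3cr1 and 13% for cycling cells, and the wild-type shares 10.5%, 17.6%, 33.0%, 24.1% and 35.7% for the first 5. Unthinned reporter shares were 53.5%, 68.1%, 93.2%, 45.1%, 72.6% and 58.9% in that order and 7.16% for Ly6c2, and unthinned wild-type shares 54.7% for Cx3cr1 and 14.6% for cycling cells. In the wild-type Timd4-positive cells 582494 UMIs in all limit what can be read, as 3 counts there are 5.15 CPM.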
